A study of Homo sapiens with 66 samples.

Results

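The messenger RNAs of 10 heat shock protein genes were followed in DLD-1, a colorectal cancer line of human origin, after rapid degradation of nuclear pore or mRNA export proteins. The genes were HSPA1A, HSPA1B, HSPA8, DNAJB1, HSPH1, HSP90AA1, BAG3, HSPB1, HSPD1 and HSPE1, chosen by name and matched by symbol to the 58051 gene identifiers of the count files. All 10 were among the 17812 genes that passed the filter on low counts, but HSPA1A and HSPA1B could be read in only some libraries, as set out below. The series holds 66 RNA-seq libraries in 22 groups of 3.

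Heat shock proteins are chaperones: they bind unfolded or newly made proteins, keep them from aggregating and help them fold. Most of these genes are transcribed in unstressed cells, and heat or misfolded protein raises them together through heat shock factor 1 (HSF1), which binds repeats of the sequence GAA in alternating orientation, called heat shock elements. Without stress, HSF1 is held inactive by the chaperones themselves.

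Each tagged line carried an auxin-inducible degron (AID), by which the plant hormone auxin triggers destruction of the tagged protein. The labels name AID-NeonGreen-TPR, NUP153-NeonGreen-AID and NUP50-NeonGreen-AID cells (proteins of the nuclear basket, on the inner face of the pore), GAP1-NeonGreen-AID cells (here RANGAP1-AID, the activator of the Ran GTPase), AID-FLAG-NXF1 cells (the mRNA export receptor), AID-HA-GANP1 cells (here AID-GANP, the scaffold of the export complex TREX-2) and a line called original (here DLD-1). Both copies of the target gene were tagged and the auxin receptor TIR1 was expressed from the RCC1 locus, according to the methods of the study, so the untreated cells of these lines carried the tag and TIR1 too. All of the tagged lines derive from DLD-1.

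Auxin was given at 1 mM. AID-TPR cells were sampled untreated and after 2 h of auxin in a first set of labels, and untreated and after 2 h and 8 h in a set labelled old. NUP153-AID and RANGAP1-AID cells were sampled untreated and after 2 h and 8 h, NUP50-AID cells without auxin and at 3 h and 9 h of it, AID-NXF1 cells untreated and after 2 h, AID-GANP cells untreated and after 3 h, and DLD-1 cells untreated and labelled with 2 h of auxin. AID-TPR cells were also given Actinomycin D (ActD), an inhibitor of transcription, for 2 h alone or with auxin. Each auxin group was compared with the control libraries of its own line and label set, which gave 13 comparisons.

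Totals lay between 18943661 and 55411411 counts per library. Auxin acts on the tagged protein, and the RNA of the tagged genes was not lost: their log2 changes lay between -0.06 (NUP153 at 8 h) and 0.29 (TPR in the old set at 8 h), and only MCM3AP, which encodes GANP, passed the adjusted p (0.26 ± 0.07, adjusted p = 0.0197). CYP1A1, which auxin raised in every other line at 2 h to 3 h, was lower in the DLD-1 libraries labelled auxin (log2 fold change -3.84 ± 0.13 SE, adjusted p = 8.22e-07), so directions in DLD-1 cells rest on labels that this gene goes against. The epithelial genes EPCAM and KRT8 had at least 343 and 2390 CPM in every library. The intestinal genes differed. CDX2 had at least 67.5 CPM in every library, and KRT20 and VIL1 had medians of 102 and 14.6 CPM, whereas CDX1 and LGALS4 stayed under 1 CPM. Of the fibroblast, immune and endothelial markers, COL1A2, DCN, PTPRC and CDH5 reached at most 0.0997, 0.0674, 0.146 and 0.122 CPM in any library and the highest was VWF at up to 12.1 CPM. In bulk RNA a lower level per cell and fewer cells with the RNA cannot be told apart.

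The stretches upstream of the genes are shown because heat shock elements, the sequences bound by HSF1, were looked for there. They were taken from RefSeq promoter entries (GRCh38.p14), which held all 10 genes, and give 120 bases ending at the base before a listed start, except for HSPD1, where the far end of its window is given. Capitals mark each match to GAANNTTC or TTCNNGAA, the 2-unit heat shock element, which reads the same on both strands; neighbouring matches may overlap.
HSPA1A, chr6:31815423-31815542, plus strand: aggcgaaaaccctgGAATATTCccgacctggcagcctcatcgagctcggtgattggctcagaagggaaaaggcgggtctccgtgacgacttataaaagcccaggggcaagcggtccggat
HSPA1B, chr6:31827618-31827737, plus strand: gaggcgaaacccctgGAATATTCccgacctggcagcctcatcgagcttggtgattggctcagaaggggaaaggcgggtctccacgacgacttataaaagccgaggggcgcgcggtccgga
HSPA8, chr11:123062137-123062256, minus strand: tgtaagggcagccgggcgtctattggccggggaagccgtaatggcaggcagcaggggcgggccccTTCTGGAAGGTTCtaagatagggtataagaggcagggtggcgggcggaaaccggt
DNAJB1, chr19:14518398-14518517, minus strand: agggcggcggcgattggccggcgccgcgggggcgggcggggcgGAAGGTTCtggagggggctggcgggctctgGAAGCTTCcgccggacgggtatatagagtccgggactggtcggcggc
HSP90AA1, chr14:102087045-102087164, minus strand: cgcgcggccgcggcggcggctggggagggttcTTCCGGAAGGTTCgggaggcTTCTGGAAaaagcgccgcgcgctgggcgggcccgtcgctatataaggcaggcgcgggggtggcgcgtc
HSPD1, chr2:197499971-197500090, minus strand: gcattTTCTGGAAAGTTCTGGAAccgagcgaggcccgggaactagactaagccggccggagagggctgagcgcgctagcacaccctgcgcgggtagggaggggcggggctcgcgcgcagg
HSPH1, chr13:31162389-31162508, minus strand: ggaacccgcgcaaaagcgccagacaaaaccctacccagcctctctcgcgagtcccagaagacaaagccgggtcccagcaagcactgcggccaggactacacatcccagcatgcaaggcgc

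In the 250 bases upstream of a listed start, 7 of the 14 promoter entries of the 10 genes had at least one 2-unit element, against 11.6% of 35116 promoter entries, and 3 of the 14 (1 each of HSPA8, HSP90AA1 and HSPD1) had the 3-unit form GAANNTTCNNGAA or its reverse complement TTCNNGAANNTTC, against 0.441%. HSPH1, BAG3 and HSPE1 had neither in these windows. The window of HSPE1, chr2:197500129-197500378, lay almost wholly inside the gene as GENCODE places it, from 197500140. The bases before that start were thus hardly searched for HSPE1. The HSPD1 stretch shown above with its elements, chr2:197499971-197500090, lies before that start of HSPE1. The windows of HSPA1A and HSPA1B held the same element, GAATATTC, 106 and 105 bases before their starts. These matches describe letters only and say nothing of binding. In GENCODE 44 (GRCh38) the genes with more than 1 exon lie at chr11:123057489-123063230 (HSPA8), chr19:14514769-14560391 (DNAJB1), chr13:31134973-31162388 (HSPH1), chr14:102080742-102139699 (HSP90AA1) and chr2:197486584-197516737 (HSPD1) on the minus strand, and at chr10:119651380-119677819 (BAG3), chr7:76302673-76304295 (HSPB1) and chr2:197500140-197503449 (HSPE1) on the plus strand.

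HSPA1A and HSPA1B encode the same stress-inducible HSP70 protein from neighbouring genes of a single exon each, at chr6:31815543-31817946 and chr6:31827738-31830254 on the plus strand. All stretches as long as a read were taken from their annotated transcripts and searched for on the 25 primary chromosomes of GRCh38. Of these, 27.7% for HSPA1A and 31.2% for HSPA1B lay at 1 place, and 1664 stretches were the same in both. For the other 8 genes that share was between 79.9% (HSPD1) and 100%. Sequences of the assembly outside these chromosomes were not searched, so the shares could be lower over the whole assembly. In the 24 libraries of AID-TPR (first label set), AID-NXF1, AID-GANP and DLD-1 cells, HSPA1B had 564 to 2872 counts and HSPA1A had 19 to 76. In the other 42 libraries neither gene passed 4 counts, and HSPA1L, the third gene of that cluster, did not pass 2. HSPA8, a relative on another chromosome, had 67447 to 161610 counts in the 24 libraries and 94309 to 278467 in the 42. HSPA1B was therefore read only in the 24 libraries, HSPA1A was read there with low counts, and no fold change is given for either gene in RANGAP1-AID, NUP153-AID, NUP50-AID, old AID-TPR or ActD libraries. Since the 2 genes share most of their sequence, the split of reads between them is uncertain.

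**Figure D1:**
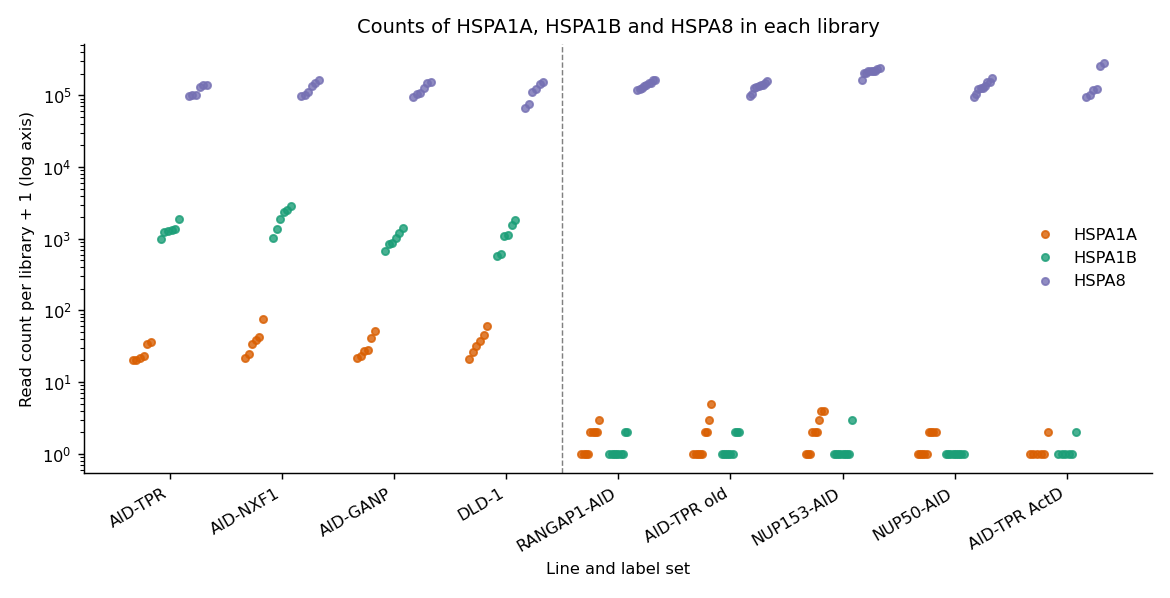
Read counts of HSPA1A, HSPA1B and HSPA8 in each library, with 1 added, on a log axis, by line and label set; each point is a library. Left of the dashed line, in 24 libraries, HSPA1B has 564 to 2872 counts and HSPA1A 19 to 76, and right of it, in 42 libraries, neither passes 4 counts, whereas HSPA8 is at 67447 or above throughout.

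The counts of HSPE1 also differed between sets of libraries. It overlaps the read-through gene HSPE1-MOB4, which had 3799 to 7804 counts in 33 libraries (the 24 above and RANGAP1-AID) and at most 13 in the other 33. HSPE1 itself had a median of 6703 counts in the first 33 and 2189 in the others, so its level is comparable only within a line and label set. Pseudogene copies took little: summed over all genes named as pseudogenes of a member, they held at most 3.79% of the counts of HSPE1 plus its copies and at most 1.29% for HSPD1 in any library, and less for the other genes.

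Without auxin, levels per length (RPKM, reads scaled to library total and to the joined length of all annotated exons) put the genes in a steep order. In untreated DLD-1 cells HSPA8, the constitutive HSP70, had 623 ± 142 RPKM (SD, n = 3 here and throughout), HSP90AA1, the inducible cytosolic HSP90, 450.4 ± 10.96, and HSPD1, the mitochondrial chaperonin HSP60, 178 ± 13.1. HSPE1, its partner HSP10, followed at 102 ± 3.97, HSPB1, the small heat shock protein HSP27, at 64.4 ± 9.00 and HSPH1, an HSP110 that exchanges the nucleotide of HSP70, at 32.7 ± 2.43. BAG3, a cochaperone that links HSP70 to autophagy, had 19.2 ± 1.23, DNAJB1, the J-domain protein HSP40 that hands clients to HSP70, 12.9 ± 2.01, HSPA1B 12.3 ± 5.07 and HSPA1A 0.404 ± 0.177. Neighbours in this order did not overlap except DNAJB1 and HSPA1B. The order depends on the length used. The joined exons of DNAJB1 span 8188 bases against 2242 in its canonical transcript, those of BAG3 2737 against 2561. HSPA1B has 2517 bases by both measures, so the low place of DNAJB1 rests on its joined length. HSPA8, HSP90AA1 and HSPD1 were also the top 3 in RANGAP1-AID cells (869 ± 71.6, 515 ± 26.4 and 166 ± 11.9 RPKM) and in NUP153-AID cells (1082 ± 170, 572 ± 36.7 and 199 ± 7.66 RPKM). In the first of these HSPE1 and HSPB1 overlapped, as did DNAJB1 and BAG3.

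Changes were tested by the quasi-likelihood test of edgeR, with p-values adjusted over all 17812 genes by the Benjamini-Hochberg method, and a gene was called only where the adjusted p was below 0.05 and its level had also moved to 1.3 times or more, or 0.7 times or less, of the control. Leaving out HSPA1A, and HSPA1B where it could not be read, 108 changes of a gene after auxin were measured, of which 0 were called higher and 2 were called lower: HSPH1 after 8 h of auxin in RANGAP1-AID cells and HSPA1B after 3 h in AID-GANP cells. In the other 11 comparisons none of the genes was called. Over all tested genes, 14.9% and 15.5% were called in those 2 comparisons. The share was at most 8.16% (AID-NXF1 cells) in the other 11.

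**Figure D2:**
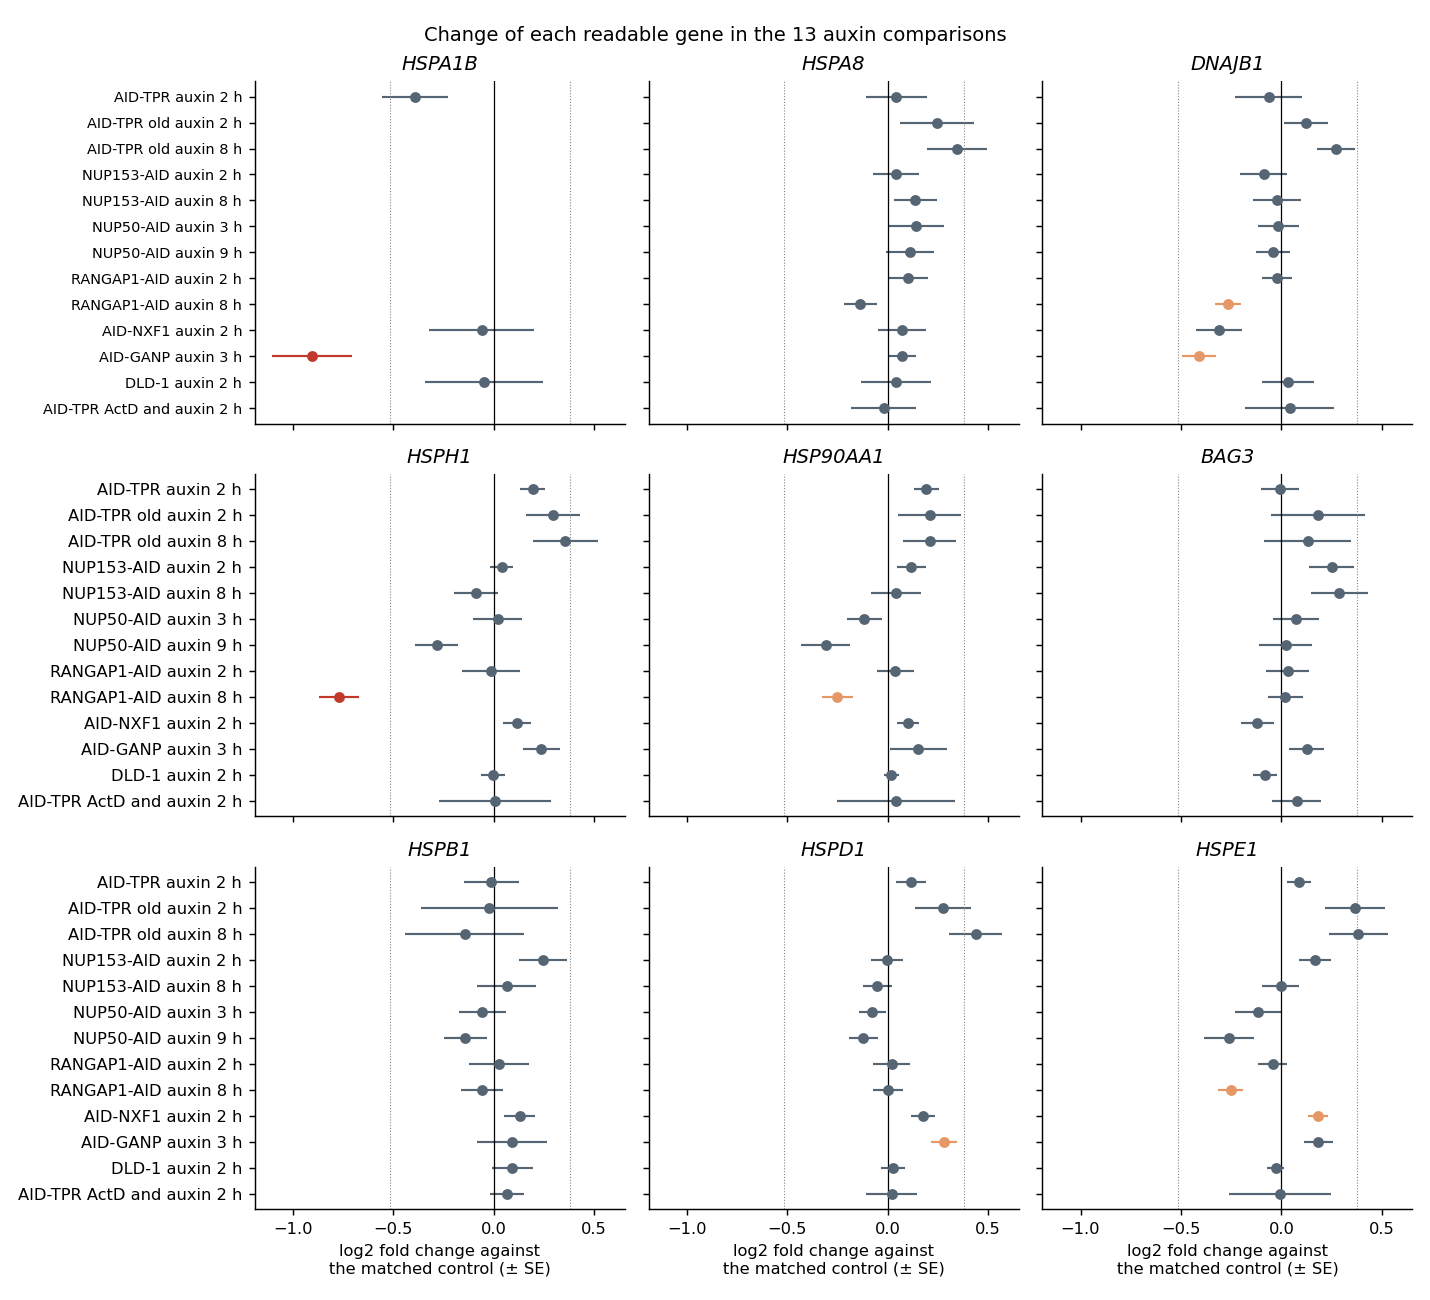
The log2 fold change of each gene against its matched control in the 13 auxin comparisons, with bars of 1 SE; dotted lines mark the folds of 1.3 and 0.7, red points are called, and orange points pass the adjusted p alone. Red marks only HSPH1 in RANGAP1-AID cells at 8 h (log2 -0.77) and HSPA1B in AID-GANP cells at 3 h (log2 -0.91).

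In RANGAP1-AID cells, in which none of the 8 readable genes was called after 2 h, HSPH1 fell after 8 h. Its normalised level was 263, 330 and 343 CPM in the untreated libraries, 253, 322 and 355 CPM after 2 h, and 171, 191 and 187 CPM after 8 h. The 3 libraries at 8 h were all below the other 6, which overlapped with each other. The log2 fold change was -0.77 ± 0.10 (SE) against untreated libraries (adjusted p = 4.26e-04) and -0.76 ± 0.11 against 2 h (adjusted p = 0.00178), or 0.586 times the untreated level. It stayed called with each of the libraries left out in turn, at log2 -0.88 to -0.69.

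DNAJB1, HSP90AA1 and the mitochondrial HSPE1 fell by less in the same libraries. DNAJB1 had 144, 157 and 156 CPM untreated, 153, 151 and 148 CPM after 2 h and 124, 130 and 127 CPM after 8 h. HSP90AA1 had 2481, 2749 and 2639 CPM untreated, 2572, 2646 and 2890 CPM after 2 h and 2087, 2265 and 2276 CPM after 8 h. HSPE1 had 179, 184 and 179 CPM untreated, 172, 182 and 175 CPM after 2 h and 150, 148 and 158 CPM after 8 h. For all 3 genes the libraries at 8 h lay below every untreated library and every library at 2 h. The log2 fold changes at 8 h were -0.26 ± 0.06 for DNAJB1 (adjusted p = 0.0132), -0.25 ± 0.08 for HSP90AA1 (adjusted p = 0.035) and -0.25 ± 0.06 for HSPE1 (adjusted p = 0.0125); they passed the adjusted p but not the fold. A single library could end that: the largest adjusted p with a library left out was 0.0601 for DNAJB1, 0.148 for HSP90AA1 and 0.0721 for HSPE1, and in 1 fit over all 66 libraries they were 0.246, 0.284 and 0.183.

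Of the 8 readable genes, 4 passed the adjusted p at any fold, all lower, where 26.7% of all tested genes did (13% lower); 1 was called, where 14.9% of all tested genes were. The same number, 4, had 8 h libraries wholly below the untreated ones, as 20.4% of all genes had. Their median log2 change was -0.19, beside -0.01 over all tested genes. HSPD1, BAG3 and HSPB1 had log2 changes of 0.00 ± 0.08, 0.02 ± 0.09 and -0.06 ± 0.10. HSPA8 had 4265, 4529 and 3840 CPM untreated and 3785, 3885 and 3839 CPM after 8 h, a log2 change of -0.14 ± 0.08 (adjusted p = 0.245). The untreated and 8 h libraries of HSPA8 overlapped, but with the replicate number as a block, which paired these libraries, the adjusted p was 0.0367. Against 2 h, HSPH1 alone was called (8.8% of all tested genes) and DNAJB1 and HSP90AA1 also passed the adjusted p at any fold, where 15.2% of all tested genes did (log2 -0.25 and -0.29, adjusted p = 0.0317 and 0.0412). With a library left out, these passes held in 2 of 6 fits for DNAJB1 and 1 of 6 for HSP90AA1. The replicate numbers paired the libraries at 8 h and 2 h. With that block HSPA8 (log2 -0.24) and HSPE1 (-0.21) passed the adjusted p as well, at 4.33e-04 and 0.00119 against 0.0706 and 0.0622 without it. The block raised the number of all genes called at 8 h from 2651 to 3167 against untreated libraries and from 1567 to 2120 against 2 h.

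**Figure D3:**
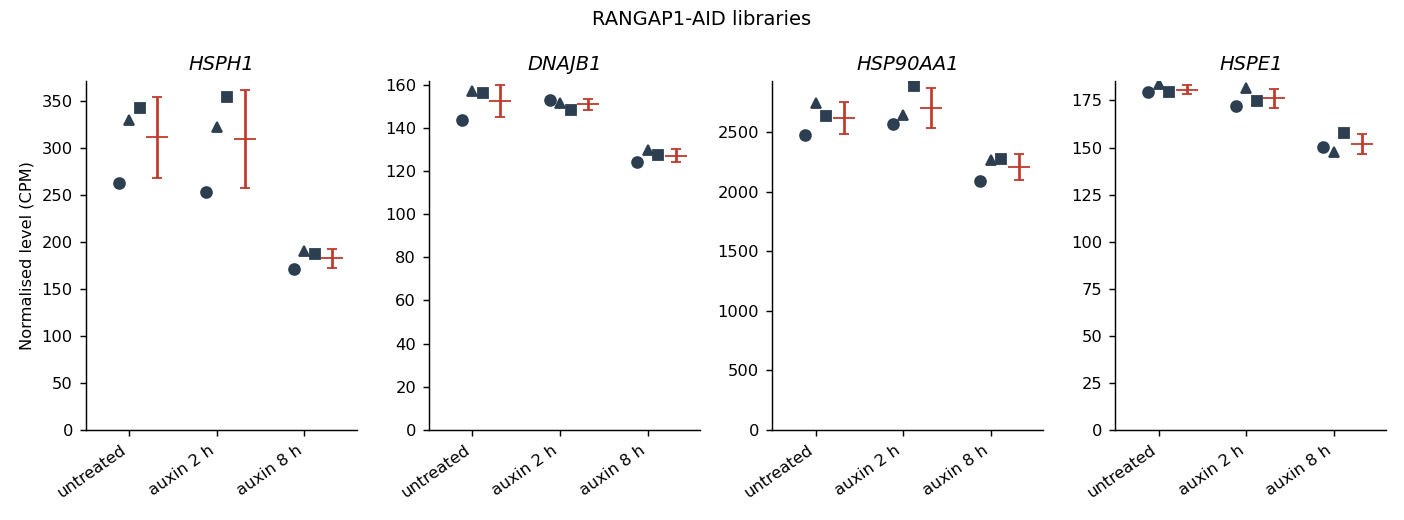
Normalised levels (CPM, from 0) of HSPH1, DNAJB1, HSP90AA1 and HSPE1 in the RANGAP1-AID libraries; circles, triangles and squares are replicates 1 to 3, and red marks give the mean ± SD. HSPH1 at 8 h lies at 171 to 191 CPM, below the untreated libraries at 263 to 343 CPM.

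In AID-GANP cells the inducible HSP70 and its J-domain partner fell after 3 h of auxin while the mitochondrial chaperonin rose. HSPA1B had 50.5, 25.7 and 36.1 CPM in the untreated libraries and 23.1, 17.7 and 18.9 CPM after auxin. The groups did not overlap, although the untreated libraries differed among themselves by more than the treated ones. The log2 fold change was -0.91 ± 0.20 (adjusted p = 0.00698), 0.534 times the untreated level, and it stayed called with each of the libraries left out, at log2 -1.12 to -0.62. HSPA1A had 50, 21 and 40 counts untreated and 22, 26 and 27 after auxin, which overlapped; its log2 change of -0.99 had an adjusted p of 0.0509, and the settings that call it are given in the closing section.

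DNAJB1 had 160, 130 and 148 CPM untreated and 112, 105 and 113 CPM after auxin in AID-GANP cells. All the treated libraries were below all the untreated ones. The log2 change was -0.41 ± 0.08 (adjusted p = 0.0045), or 0.752 times, short of the fold of 0.7. HSPD1 had 1185, 1201 and 1223 CPM untreated and 1512, 1413 and 1461 CPM after auxin, again without overlap. Its log2 change was 0.28 ± 0.07 (adjusted p = 0.00977), below the fold of 1.3. With library totals in place of TMM factors, which moved the median of all genes from 0.01 to -0.09, DNAJB1 was called (log2 -0.52) and HSPD1 lost its adjusted p (log2 0.17, adjusted p = 0.0519); in 1 fit over all 66 libraries DNAJB1's adjusted p was 0.0609.

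Of the 9 readable genes in AID-GANP cells, 3 passed the adjusted p, where 28.9% of all tested genes did, and 1 was called, where 15.5% were. HSPA8 had 3303, 3045 and 3224 CPM untreated and 3364, 3268 and 3429 CPM after auxin, overlapping groups with a log2 change of 0.07 ± 0.07. BAG3 and HSPB1 had log2 changes of 0.13 ± 0.09 and 0.09 ± 0.18. The replicate numbers paired these libraries. With that block HSPH1 (log2 0.24, adjusted p = 3.87e-06), HSP90AA1 (0.16, adjusted p = 0.00127) and HSPE1 (0.18, adjusted p = 7.16e-04) also passed the adjusted p, below the fold. Without it their adjusted p were 0.0749, 0.446 and 0.0802. The block raised the number of all genes called from 2760 to 3207. The share of all genes that passed the adjusted p with it is not given.

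In AID-NXF1 cells 1 of the 9 readable genes passed the adjusted p after 2 h, where 21.5% of all tested genes did, and none was called (8.16% of all genes). That gene was HSPE1, at 212, 218 and 208 CPM untreated and 252, 241 and 231 CPM after auxin, with no overlap and a log2 change of 0.18 ± 0.05 (adjusted p = 0.024). Leaving out a library took its adjusted p as high as 0.0913. DNAJB1 had 124, 132 and 157 CPM untreated and 90.1, 113 and 130 CPM after auxin. Each treated library was below the untreated library of the same number, though the groups overlapped, and the log2 change of -0.31 ± 0.12 had an adjusted p of 0.0774 without the replicate block and 2.28e-06 with it. HSPD1 had 1778, 1726 and 1719 CPM untreated and 2099, 1978 and 1825 CPM after auxin, a log2 change of 0.18 ± 0.06 (adjusted p = 0.0559, and 8.49e-05 with the block). The groups of HSPD1 did not overlap either. Nor did those of HSP90AA1, at 3258 to 3326 CPM untreated and 3405 to 3635 CPM after auxin. The share of all genes without overlap is not given for AID-NXF1 cells. With the block, HSPA8, HSPH1, HSP90AA1, BAG3 and HSPB1 passed the adjusted p as well, at log2 0.07, 0.12, 0.10, -0.12 and 0.13, none of them reaching the fold. The block raised the number of all genes called from 1453 to 1720. The share of all genes that passed the adjusted p with it is not given. HSPA1B had 41.8, 66.02 and 77.8 CPM untreated and 33.01, 68.4 and 75.9 CPM after auxin, wide and overlapping groups with a log2 change of -0.06 ± 0.26.

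**Figure D4:**
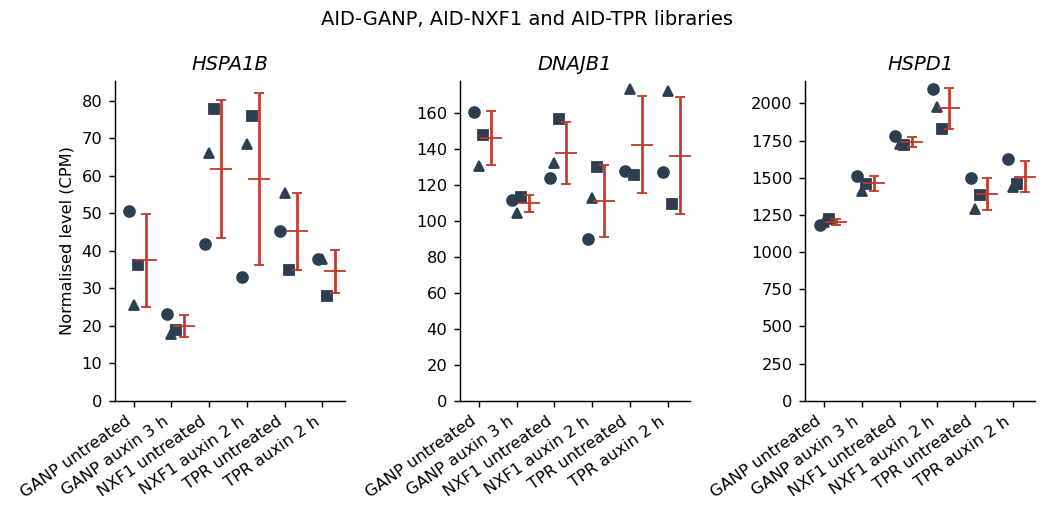
Normalised levels (CPM, from 0) of HSPA1B, DNAJB1 and HSPD1 in AID-GANP, AID-NXF1 and AID-TPR libraries; circles, triangles and squares are replicates 1 to 3, and red marks give the mean ± SD. HSPA1B in AID-GANP cells goes from 25.7 to 50.5 CPM untreated to 17.7 to 23.1 CPM after auxin, and HSPD1 from 1185 to 1223 CPM to 1413 to 1512 CPM.

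In AID-TPR cells none of the 9 readable genes passed the adjusted p after 2 h of auxin, where 0.662% of all tested genes did (0.511% were called). HSPA1B had 45.2, 55.5 and 34.97 CPM untreated and 37.9, 37.8 and 27.9 CPM after auxin. Every treated library was below the untreated library of its number, and the groups overlapped. The log2 change was -0.39 ± 0.17 (adjusted p = 0.497), and -0.38 ± 0.06 (adjusted p = 2.04e-06) with the replicate block, which paired these libraries. DNAJB1 had 128, 174 and 126 CPM untreated and 127, 172 and 109 CPM after auxin, overlapping groups with a log2 change of -0.06 ± 0.17 (adjusted p = 0.937). HSPH1 had 220, 205 and 200 CPM untreated and 237, 240 and 238 CPM after auxin, and HSP90AA1 had 2660, 2537 and 2561 CPM and 2739, 3035 and 3099 CPM. Neither gene's groups overlapped, as for 3 of the 9 genes, all higher, and 7.26% of all genes. Both had a log2 change of 0.19 ± 0.06, with adjusted p of 0.273 and 0.321 without the block and 0.00389 and 0.00714 with it. The block raised the number of all genes called from 91 to 416.

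In the old AID-TPR libraries, where HSPA1A and HSPA1B could not be read, no change of the 8 readable genes passed the adjusted p. After 8 h HSPD1 had 2274, 1564 and 1875 CPM, against 1495, 1421 and 1307 CPM untreated, with no overlap. The log2 change was 0.44 ± 0.13 (adjusted p = 0.0858); 3.61% of all tested genes were called. Without the second library at 8 h it was called (adjusted p = 0.00775). DNAJB1 had 176, 163 and 170 CPM untreated, 180, 187 and 185 CPM after 2 h and 210, 199 and 204 CPM after 8 h. The groups did not overlap at either time, as for 1 of the 8 genes after 2 h and 2 of them after 8 h, where 6.78% and 13.7% of all genes lay wholly higher, with log2 changes of 0.12 ± 0.11 (adjusted p = 0.679) and 0.27 ± 0.10 (adjusted p = 0.125). The 8 readable genes had a median log2 change of 0.23 after 2 h and 0.31 after 8 h, beside 0 over all tested genes. None was called after 2 h, where 0.455% of all tested genes were.

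After auxin in the lines of the other basket proteins no change of the genes passed the adjusted p. In NUP153-AID cells the 8 log2 changes lay between -0.09 and 0.25 after 2 h and between -0.09 and 0.29 after 8 h, with 95% intervals reaching from -0.32 to 0.56, and none was called (0.0393% and 1.34% of all tested genes). BAG3 and HSPB1 were the highest after 2 h, at 46.8, 41.3 and 57.8 CPM against 38.5, 40.5 and 43.8 CPM for BAG3 and 110, 103 and 147 CPM against 93.1, 103 and 107 CPM for HSPB1. The groups overlapped for both, and both passed only with the replicate block, which paired these libraries (log2 0.24 and 0.23, adjusted p = 0.0156 each, against 1 for both without it). In NUP50-AID cells the changes lay between -0.12 and 0.14 after 3 h and between -0.31 and 0.11 after 9 h, and none was called (0.23% and 0.371% of all tested genes). HSPH1 had 373, 366 and 312 CPM untreated, 440, 324 and 304 CPM after 3 h and 337, 290 and 238 CPM after 9 h, overlapping at each time, with a log2 change of -0.28 ± 0.11 at 9 h (adjusted p = 0.217). Between 9 h and 3 h, which the replicate numbers paired, the log2 change of HSPH1 was -0.30 with an adjusted p of 0.618, and 6.75e-04 with the block (0.258% of all tested genes were called without it). HSP90AA1 likewise passed only with the block (log2 -0.21, adjusted p = 0.0194, against 0.722 without it).

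In RANGAP1-AID cells after 2 h the 8 changes lay between -0.04 and 0.10, with no call (0.589% of all tested genes). In DLD-1 cells the 9 changes between libraries labelled auxin and untreated lay between -0.08 and 0.09, with none called (0.0561% of all genes) and 95% intervals from -0.62 to 0.52, the widest being HSPA1B's. HSPA1B there had 43.9, 30.8 and 18.4 CPM in libraries labelled untreated and 40.4, 29.5 and 19.8 CPM in those labelled auxin. With ActD, auxin moved the 8 genes of AID-TPR cells by -0.02 to 0.08, with wide 95% intervals from -0.54 to 0.62. Of all tested genes 0 were called by edgeR and 0 by DESeq2, while 0.438% had an unadjusted p under 0.05. With the replicate block, which paired these libraries, 5 of all tested genes were called, none of them among the 8.

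The difference between the response of AID-TPR cells at 2 h and that of each other tagged line was tested as an interaction over 12 libraries. NUP50-AID and AID-GANP cells had 3 h of auxin, so for these line and auxin time differed together. None of the readable genes passed an adjusted p of 0.05 against NUP153-AID (0.646% of all tested genes did), NUP50-AID (0.124%), RANGAP1-AID (0.298%), AID-NXF1 (2.28%) or AID-GANP cells (5.77%). The smallest adjusted p was 0.394, for HSP90AA1 against NUP50-AID. With the replicate numbers as a block within each line, HSPA1B and DNAJB1 differed between AID-TPR and AID-GANP cells (log2 0.50 ± 0.10 and 0.34 ± 0.07, adjusted p = 2.39e-04 and 4.79e-04, both higher in AID-TPR). They also differed between AID-TPR and AID-NXF1 cells (-0.28 ± 0.09 and 0.25 ± 0.07, adjusted p = 0.0315 and 0.0107). With that block 22.1% of all tested genes differed between AID-TPR and AID-GANP cells, and 13.3% between AID-TPR and AID-NXF1 cells.

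The genes that control these chaperones were described next. HSF1 itself did not pass the adjusted p in any of the 13 comparisons and its log2 changes lay between -0.03 and 0.23. HSF2, a second heat shock factor, fell in AID-NXF1 cells (log2 -0.65 ± 0.06, adjusted p = 3.51e-05). HSF4, best known from the lens, fell in AID-GANP (log2 -1.18 ± 0.13, adjusted p = 7.06e-05), AID-NXF1 (-0.70 ± 0.22, adjusted p = 0.0448) and, after 8 h, RANGAP1-AID cells (-0.65 ± 0.14, adjusted p = 0.00574).

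Among 9 other HSF1 target genes, IER5, whose protein binds HSF1 and which heat induces, fell in several lines. It had 31.3, 29.6 and 28.0 CPM in untreated AID-TPR cells and 13.3, 14.7 and 14.8 CPM after 2 h. It had 40.3, 43.9 and 43.96 CPM in untreated AID-GANP cells and 10.4, 10.7 and 9.86 CPM after 3 h, and 28.1, 30.2 and 36.7 CPM in untreated AID-NXF1 cells and 12.3, 10.8 and 11.9 CPM after 2 h. None of these groups overlapped. The log2 changes were -1.06 ± 0.09 (adjusted p = 0.00136), -2.05 ± 0.08 (adjusted p = 9.22e-07) and -1.45 ± 0.10 (adjusted p = 5.85e-06), and old AID-TPR cells gave -1.19 ± 0.15 at 2 h (adjusted p = 0.0131) and -0.99 ± 0.25 at 8 h (adjusted p = 0.0625, and called with library totals in place of TMM factors, log2 -1.12, adjusted p = 0.0332).

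IER5 also fell in RANGAP1-AID cells at 2 h, from 25.5, 23.9 and 22.9 CPM to 16.8, 15.3 and 17.9 CPM (log2 -0.53 ± 0.09, adjusted p = 0.0428), and stood at 22.3, 20.9 and 24.1 CPM at 8 h (log2 -0.10 ± 0.08, adjusted p = 0.4). In NUP153-AID and NUP50-AID cells its log2 changes lay between -0.07 and 0.07. The interaction set AID-TPR apart from NUP153-AID (log2 -1.02 ± 0.10, adjusted p = 7.05e-04) and NUP50-AID cells (-1.13 ± 0.12, adjusted p = 0.00223). IER5 fell less in AID-TPR cells at 2 h than in AID-GANP cells at 3 h (difference 1.00 ± 0.11, adjusted p = 3.78e-04). The difference from RANGAP1-AID (-0.53 ± 0.13, adjusted p = 0.141) and AID-NXF1 cells (0.40 ± 0.14, adjusted p = 0.194) did not pass. With ActD, auxin moved IER5 by 0.01 ± 0.22.

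**Figure D5:**
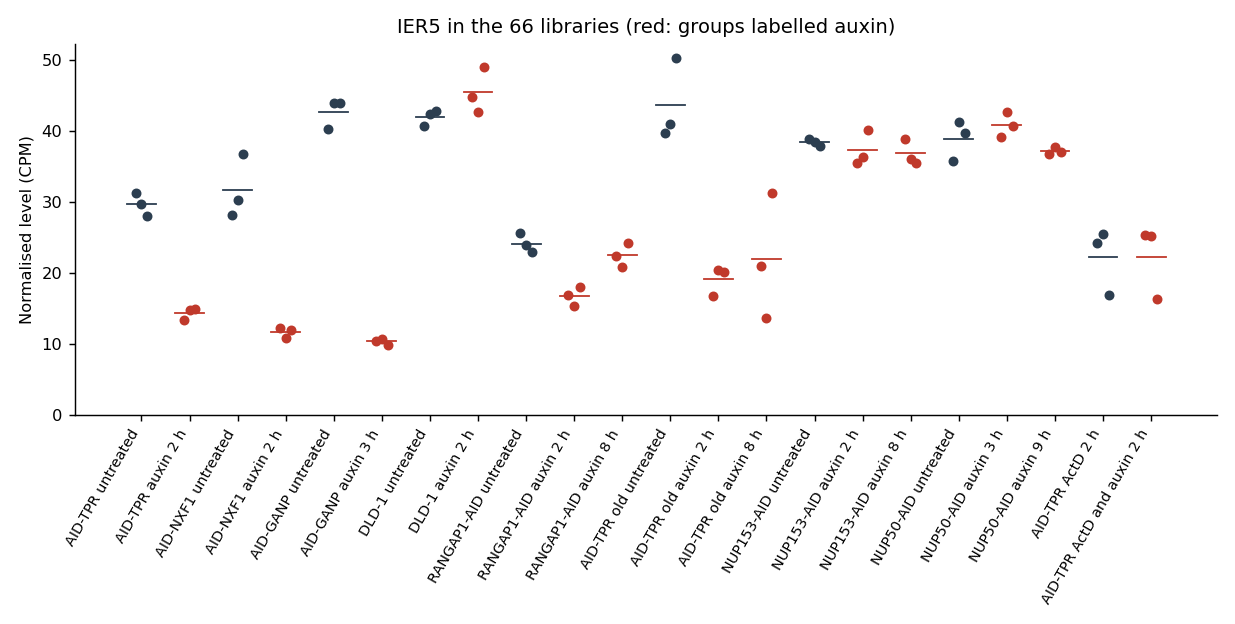
Normalised level of IER5 (CPM, from 0) in each of the 66 libraries by group; points are libraries, lines are means, and groups labelled auxin are red. AID-TPR, AID-NXF1 and AID-GANP libraries after auxin lie at 9.86 to 14.8 CPM, below their untreated libraries at 28.0 to 43.96 CPM, whereas NUP153-AID and NUP50-AID groups overlap with their controls.

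Of the other 8 HSF1 targets, RGS2 (log2 0.72 ± 0.15, adjusted p = 0.00632) and ZFAND2A (0.54 ± 0.13, adjusted p = 0.0111) rose in RANGAP1-AID cells at 8 h, so that list had 2 of 9 genes called higher, where 8.26% of all tested genes were, and 1 lower, DEDD2 (log2 -0.52), where 6.62% were. The call of DEDD2 was lost with RLE factors, the median-ratio scaling, in place of TMM factors. Among 8 J-domain protein genes of the cytosol, DNAJB2 fell in AID-GANP (log2 -1.11 ± 0.10, adjusted p = 2.01e-05), AID-NXF1 (-0.77 ± 0.12, adjusted p = 9.51e-04) and old AID-TPR cells at 8 h (-0.87 ± 0.19, adjusted p = 0.0445), and rose in RANGAP1-AID cells at 8 h (0.88 ± 0.08, adjusted p = 7.95e-05), together with DNAJB6 (0.45 ± 0.07, adjusted p = 0.00123). Of 9 tested HSP70, HSP110 and HSP90 relatives, HSPA13 rose in old AID-TPR cells at 8 h (0.63 ± 0.12, adjusted p = 0.0288). HSPA6, an HSP70 made almost only under stress, fell in RANGAP1-AID cells at 8 h on a mean of 9.17 counts (-1.26 ± 0.38, adjusted p = 0.0333). HSPA6 lies below the minimum for named genes and is given to account for the count. None of the 8 small heat shock protein genes on the list besides HSPB1 passed the filter on low counts.

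Among 18 cochaperone genes, BAG5, a cochaperone of HSP70, fell in AID-GANP cells (log2 -0.92 ± 0.09, adjusted p = 4.45e-05) and in old AID-TPR cells at 8 h (-0.95 ± 0.15, adjusted p = 0.017), and CHORDC1, a partner of HSP90, fell in RANGAP1-AID cells at 8 h (-0.52 ± 0.10, adjusted p = 0.00391), a call that was lost with RLE factors. Among 13 ER chaperone genes, DNAJB9 fell in AID-NXF1 (-1.19 ± 0.12, adjusted p = 3.87e-05) and AID-GANP cells (-0.63 ± 0.15, adjusted p = 0.0108), and DNAJC3 rose in old AID-TPR cells at 8 h (0.50 ± 0.10, adjusted p = 0.0334), a call that was lost with library totals. GRPEL2, a nucleotide exchange factor of mitochondrial HSP70, fell in AID-NXF1 (-0.81 ± 0.06, adjusted p = 9e-06) and AID-GANP cells (-0.85 ± 0.07, adjusted p = 1.16e-05), as the 1 called gene of 9 mitochondrial chaperone and protease genes, beside 8.16% and 15.5% of all tested genes.

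The 8 subunits of TRiC, the cytosolic chaperonin that folds actin and tubulin, moved together and by little. In AID-GANP cells all 8 passed the adjusted p, higher, at log2 0.24 to 0.32 with a median of 0.28, and in AID-NXF1 cells 7 of 8 did, with a median of 0.20; none reached the fold of 1.3. Over all tested genes the median was 0.01 in both, and 10.2% and 7.4% passed the adjusted p higher. The number in AID-GANP cells depended on the scaling: with library totals alone 2 of 8 passed, with a median of 0.18 beside -0.09 over all genes, and in AID-NXF1 cells 6 of 8 did. HSPD1's change in AID-GANP cells, log2 0.28, lay within the range of the TRiC subunits.

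The genes most like each member across the 60 libraries without ActD, each library taken relative to the mean of its line and label set, were described by Pearson's r of log2 CPM among 11242 other genes. Libraries of a group share line, treatment and control, so r is a description only. HSPA8 was most like DNAJA1 (r = 0.723), JMJD6 (0.689) and DNAJB1 (0.655). DNAJB1 was most like JMJD6 (0.763), DEDD2 (0.709) and HSPA8. DNAJA1 is a J-domain partner of HSP70, and DEDD2 is on the list of HSF1 targets. In the 24 libraries where HSPA1B could be read, its r was 0.833 with DNAJB1 and 0.690 with HSPA8, and -0.518 with HSP90AA1.

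HSPH1 was most like ARHGAP29 (r = 0.845), IDH3A (0.829) and PTPN11 (0.820), with HSP90AA1 in the 6th place (0.778). HSP90AA1 was most like ATP1B3 (0.830), MTHFD1 (0.817) and HNRNPH3 (0.809). HSPD1 was most like CCT8 (0.937) and CCT6A (0.911), which encode TRiC subunits, and WDR75 (0.910). HSPE1, whose gene lies head to head with HSPD1 on chromosome 2, was most like SUGT1 (0.803), PSMA1 (0.763) and RWDD1 (0.743). Its r with HSPD1 was 0.709, which put HSPE1 only in the 343rd place among the genes most like HSPD1. HSPB1 was most like TECR (0.912), JUP (0.901) and PI4KA (0.879), and BAG3 was most like GNB2 (0.789), MYD88 (0.776) and SCAMP4 (0.776), with an r of 0.725 between HSPB1 and BAG3. Between members the highest r over the 60 libraries was that of HSPH1 and HSP90AA1.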

How the data were processed

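The authors sequenced rRNA-depleted total RNA in paired-end reads and, per the labels, mapped it to GRCh38 with STAR 2.6.1c and counted it with featureCounts 1.5.2; the deposited values are raw counts per Ensembl gene, without normalization. How reads at several places were treated in each library is not given in the sources used here. Genes over 1 CPM in at least 4 of the 60 libraries without ActD (17812) were tested by edgeR 4.0.16 (quasi-likelihood test, TMM, Benjamini-Hochberg) on the libraries of the groups compared. CPM in the text are TMM-scaled within a line and label set. SE is the log2 change over the square root of F. DESeq2, other scalings and filters, a replicate block, 1 fit over 66 libraries and each library left out were run as alternatives. The fits were tested on simulated data. Symbols, lengths and coordinates are from GENCODE 44, which held 56948 of the 58051 identifiers.

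The replicate numbers were taken as pairing where all 3 same-numbered pairs had a correlation of deviations over 0.1: AID-TPR at 2 h, NUP153-AID at 2 h, RANGAP1-AID at 2 h and 8 h, AID-NXF1, AID-GANP and ActD. The members and lists were chosen with earlier results of these data known. Named genes are the members, at most 2 called genes per list and comparison averaging 50 counts or more, taking the largest changes, the 3 genes most like each member, and genes named to account for a count. The study describes the replicates as independent biological ones. All 66 pairs of libraries in a group differed beyond sampling noise (chi-square per gene at least 4.32).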

Additional observations from a re-analysis of the deposited data

Results flagged for a closer look

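DNAJB1 was flagged by a search of the readable members for groups that lay wholly apart from their own control, in opposite directions in different lines. Lack of overlap was thus the rule of the search. Of all tested genes, 6.78% lay wholly higher in old AID-TPR cells at 2 h and 13.7% at 8 h. In RANGAP1-AID cells at 8 h 20.4% lay wholly lower, and no share is given for AID-GANP cells. At 2 h to 3 h DNAJB1 was higher in old AID-TPR cells (log2 0.12) and lower in AID-GANP cells (log2 -0.41). At 8 h it was higher in old AID-TPR cells (log2 0.27) and lower in RANGAP1-AID cells (log2 -0.26). The 2 changes in old AID-TPR cells did not pass the adjusted p, and neither difference between lines was tested. In the first AID-TPR label set the change at 2 h was log2 -0.06 with overlapping groups, so the higher level was seen in the old set alone of the 2 AID-TPR sets. With each library left out in turn the log2 change lay between 0.08 and 0.17 in old AID-TPR cells at 2 h, between 0.24 and 0.29 at 8 h, between -0.48 and -0.32 in AID-GANP cells and between -0.30 and -0.24 in RANGAP1-AID cells at 8 h.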

How the results depend on the processing

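The number of genes called was recomputed under 192 combinations of comparison and setting and was the same, within 1.5 times, in 180. In AID-GANP cells it was 1 (HSPA1B) and became 3 with library totals alone (HSPA1A, HSPA1B and DNAJB1) and 2 with DESeq2, with no filter on low counts, with filterByExpr and with the replicate block (each HSPA1A and HSPA1B) and with a fold of 1.3 in both directions (HSPA1B and DNAJB1). HSPA1A's adjusted p there ranged from 5.91e-05 to 0.0523 over the settings. In old AID-TPR cells at 8 h it was 0 and became 1 (HSPD1) with no filter on low counts and with the replicate block, which did not pair those libraries, and 2 (HSPD1 and HSPE1) in 1 fit over all 66 libraries; HSPD1's adjusted p ranged from 4.46e-04 to 0.194. The replicate block took the genes that differed between AID-TPR and AID-NXF1 cells, and between AID-TPR and AID-GANP cells, from 0 to 2 (HSPA1B and DNAJB1 in both). No filter on low counts took the latter to 1 (HSPA1B). With the block, 13.3% of all tested genes differed from AID-NXF1 cells and 22.1% from AID-GANP cells. The causes were not tested. The block changed no other count of called members.

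With a library left out, the count ranged from 0 to 1 in old AID-TPR cells at 8 h (1 without the second library at 8 h) and from 1 to 2 in AID-GANP cells (2, with HSPA1A, without the second untreated library), and it was unchanged in the other comparisons. No called change reversed; of 2726 values of single genes under the alternatives, 211 had another sign than the main value, none of them called. The block raised the number of all genes called from 91 to 416 in AID-TPR, from 7 to 134 in NUP153-AID at 2 h and from 105 to 468 in RANGAP1-AID cells at 2 h, and from 46 to 215 between NUP50-AID cells at 9 h and 3 h. Where the numbers did not pair the libraries the block also moved it, from 81 to 292 in old AID-TPR cells at 2 h, from 643 to 1682 at 8 h, from 238 to 75 in NUP153-AID cells at 8 h, from 41 to 176 and from 66 to 524 in NUP50-AID cells at 3 h and 9 h and from 10 to 48 in DLD-1 cells; there it stands for a shared number only. With library totals alone the share of called genes that were higher fell from 25.7% to 12.4% in AID-GANP, from 34.7% to 11.7% in old AID-TPR at 8 h and from 27.3% to 16.6% in AID-NXF1 cells. Depth limits HSPA1A, at 19 to 76 counts where it could be read.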
